A study of Mus musculus with 40 samples.

Results

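This report follows the midbrain of MPTP-treated mice that received SUEHP alone or SUEHP together with 1 of 2 receptor antagonists, and asks which genes differed in the same direction with both antagonists. It uses 12 of the 20 midbrain libraries and of the 40 libraries of the series, taken by their labels alone: 4 of MPTP-SU, 4 of MPTP-SU+S and 4 of MPTP-SU+T. The 8 antagonist libraries were pooled against the 4 MPTP-SU libraries with each arm given equal weight, and each arm was also compared with MPTP-SU by itself. The study sequenced mRNA of the midbrain and the spinal cord in these groups and in Con and MPTP-Veh.

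All mice were male C57BL/6N animals. Their age is given as 8 weeks, which in the study is the age when they were obtained, before the injections. Every mouse of the 3 groups received 4 intraperitoneal injections of the dopaminergic neurotoxin MPTP at 20 mg/kg, and then 4 injections of SUEHP, a herbal pharmacopuncture preparation given bilaterally at an acupoint of the hind limb. A legend of the study names another acupoint for MPTP-SU+S than its methods do, so whether that group also differed in injection site was not settled. MPTP-SU mice received no antagonist. MPTP-SU+S mice received the CB1 antagonist SR141716A at 3 mg/kg in addition (the sample labels spell it SR141714A), and MPTP-SU+T mice received the PPARγ inhibitor T0070907 at 5 mg/kg. Both drugs were dissolved in a mixture of ethanol, a surfactant and saline, and the sources used here do not say whether MPTP-SU mice received that solvent, so drug and solvent cannot be told apart. Con mice received saline and no MPTP, and MPTP-Veh mice received MPTP and saline in place of SUEHP. No group received an antagonist without SUEHP. The labels number 4 replicates a group without saying that each came from a different mouse, so p-values measure the spread between these samples.

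CB1, encoded by Cnr1, is a G protein-coupled receptor on nerve terminals. Endocannabinoids made by the postsynaptic cell act on it to lower transmitter release, and in the midbrain they tune the input to dopaminergic neurons. PPARγ, encoded by Pparg, is a nuclear receptor that pairs with a retinoid X receptor and turns on genes of lipid handling, and some endocannabinoids and their breakdown products are ligands of PPARs.

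No gene was called in the pooled comparison. With edgeR's quasi-likelihood test, 0 of 16130 genes tested had an adjusted p below 0.05 and a fold change above 1.5 (percent called 0.0%), and the smallest adjusted p was 0.99966. At an unadjusted p below 0.05 there were 558 genes (3.46%), 254 higher and 304 lower with the antagonists, where 806.5 would be reached by p-values spread evenly. DESeq2 and limma-voom also called 0 genes, with 559 and 597 at an unadjusted p below 0.05.

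Neither antagonist alone gave a called gene, so the count of genes called in the same direction with both was 0 (0.0%). For SR141716A the edgeR test gave 427 genes at an unadjusted p below 0.05 (2.65%) and for T0070907 474 (2.94%). DESeq2 called 0 genes in each, with 433 and 471 at that level, and limma-voom called 0 with 414 and 536. Genes with an unadjusted p below 0.05 and a fold above 1.5 in both arms numbered 15 higher (0.093%) and 37 lower (0.229%), and they share the 4 MPTP-SU libraries as their reference, so an unusual MPTP-SU value enters both arms. The 2 arms were also compared directly. No gene was called between MPTP-SU+T and MPTP-SU+S with edgeR (0.0%), DESeq2 or limma-voom, with 207 (1.28%), 176 and 201 genes at an unadjusted p below 0.05. The doses of the drugs differ, so the direct comparison is of these 2 treatments and not of the receptors.

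The precision of the pooled comparison depended on the expression level. The 95% interval of the difference lay inside 1.5-fold in either direction for 12018 genes (74.5%) and inside 2-fold for 14627 (90.7%). For genes with a mean of 10 to 100 CPM (counts scaled to a common library size) the share inside 1.5-fold was 95.6%, and for genes at 100 CPM or more 97.0%. It was 49.0% at 1 to 10 CPM and 0.56% below 1 CPM. A pooled difference above 1.5-fold was therefore outside the interval of most well expressed genes, while nearly all genes below 1 CPM had an interval that reached past 1.5-fold. The median size of the pooled log2 difference over all genes was 0.08.

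**Figure D1:**
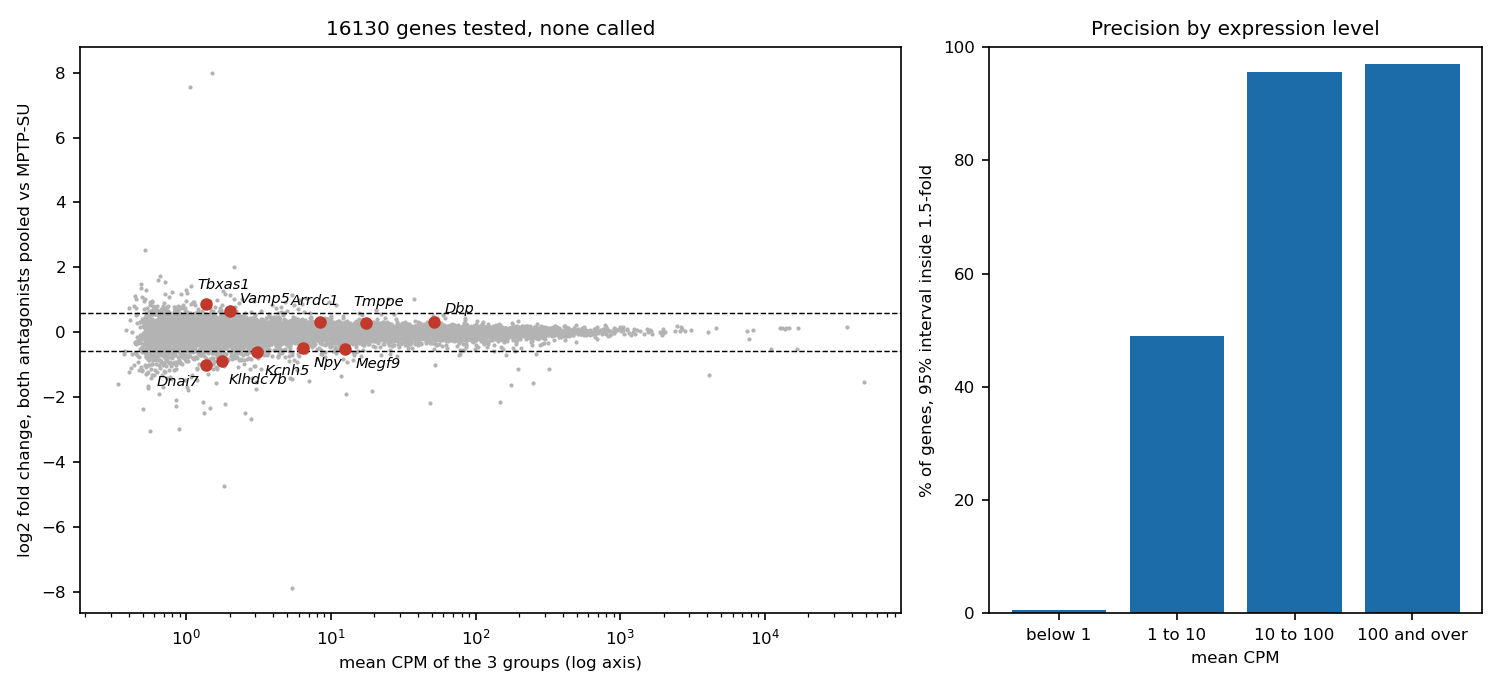
Left: pooled log2 fold change of the 8 antagonist libraries against the 4 MPTP-SU libraries (vertical axis) by mean CPM of the 3 groups (horizontal log axis), 1 grey point per gene tested, with dashed lines at 1.5-fold and 10 named genes in red. Right: percent of genes whose 95% interval lies inside 1.5-fold, by mean CPM. Of 16130 genes none was called, and the spread of differences narrows from left to right as the share inside 1.5-fold goes from 0.56% to 97.0%.

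The 3 points beyond the rest of that plot were looked up after their values were seen. Entpd4, a Golgi nucleotidase, was at 0 in all 4 MPTP-SU libraries and in MPTP-SU+S 3 and MPTP-SU+T 4, and at 1.02 to 6.12 CPM in the other antagonist libraries. Its near-identical copy Entpd4b ran from 52.9 to 66.1 CPM in MPTP-SU and from 53.6 to 65.1 CPM in the antagonist libraries, and how reads were divided between the copies is uncertain. The other 2 are unnamed predicted genes. Gm54094 was at 0 in every MPTP-SU library and in 3 antagonist libraries. Gm23849 was at 16.2, 11.7, 0 and 34.4 CPM in MPTP-SU and at 0 in 7 of 8 antagonist libraries.

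For 56 genes (0.347%) the 8 antagonist libraries lay entirely on 1 side of the 4 MPTP-SU libraries, 33 higher (0.205%) and 23 lower (0.143%). For a gene without ties, a share of 0.0040 of the 495 divisions of 12 libraries into 8 and 4 gives such a separation. The share of genes found was not above that. The 5 named genes of each direction with the smallest pooled p are described next. They were chosen for not overlapping and none was called, with an adjusted p of 0.9997 each by edgeR's test, so their values are given as a description and not as changes. In the 10 genes the arms differed from each other by a log2 value between -0.16 and 0.43, with an unadjusted p of 0.11 or more.

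Of the 5 higher genes, Dbp is the best expressed. It encodes a PAR bZIP transcription factor whose mRNA follows the circadian clock. Dbp was at 36.1, 46.9, 48.9 and 45.2 CPM in MPTP-SU, at 50.6, 55.5, 52.4 and 60.1 CPM in MPTP-SU+S and at 49.1, 53.1, 58.1 and 64.0 CPM in MPTP-SU+T. The groups were separated by a small margin, 48.9 against 49.1 CPM. The pooled log2 difference was 0.32 (SE 0.09, 95% interval 0.12 to 0.52). Con libraries held 44.5 to 58.9 CPM.

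Vamp5 encodes a vesicle SNARE of the synaptobrevin family. Its MPTP-SU libraries were at 1.65, 1.29, 1.45 and 1.41 CPM, those of MPTP-SU+S at 2.38, 1.70, 2.43 and 2.13 CPM, and those of MPTP-SU+T at 2.27, 2.04, 2.54 and 2.68 CPM. All 8 antagonist values were low in absolute terms but above every MPTP-SU value. The log2 difference was 0.64 (SE 0.18, 95% interval 0.26 to 1.03), and the 4 Con libraries (2.09 to 4.00 CPM) and the 4 MPTP-Veh libraries (3.18 to 6.62 CPM) also lay above MPTP-SU. Tbxas1 encodes thromboxane A synthase, which turns prostaglandin H into thromboxane, and was at 1.06, 1.09, 0.638 and 0.740 CPM in MPTP-SU. With SR141716A it was at 1.29, 2.07, 1.71 and 1.44 CPM, and with T0070907 at 1.17, 1.40, 1.64 and 2.22 CPM. Its log2 difference of 0.88 (SE 0.26, 95% interval 0.33 to 1.43) is the largest of the 5, at a level where single libraries hold few counts.

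Tmppe, a transmembrane protein with a metallophosphoesterase domain, was at 14.3, 16.4, 15.7 and 14.1 CPM in MPTP-SU and at 16.9 to 20.7 CPM in both antagonist groups. Arrdc1 encodes an arrestin-domain protein that takes part in budding of vesicles from the plasma membrane. Its MPTP-SU libraries lay close together, at 7.0, 7.19, 7.60 and 7.25 CPM in MPTP-SU, with 9.04, 9.38, 8.95 and 8.53 CPM in MPTP-SU+S and 7.97, 9.11, 8.76 and 10.8 CPM in MPTP-SU+T. The pooled log2 differences were 0.30 (SE 0.09) for Tmppe and 0.32 (SE 0.10) for Arrdc1.

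Among the 5 lower genes, Megf9 encodes a membrane protein with EGF-like domains. Megf9 was at 16.3, 14.3, 15.9 and 16.5 CPM in MPTP-SU, at 10.8, 9.01, 10.1 and 14.2 CPM in MPTP-SU+S and at 13.8, 9.56, 9.83 and 10.7 CPM in MPTP-SU+T. In each arm 3 libraries grouped near 10 and 1 library came close to the MPTP-SU level. The pooled log2 difference was -0.52 (SE 0.13, 95% interval -0.79 to -0.24), with -0.51 for SR141716A and -0.52 for T0070907. Con libraries, at 8.28 to 10.1 CPM, lay below MPTP-SU as well.

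Npy encodes neuropeptide Y, an inhibitory peptide transmitter. Its levels were 8.06, 7.32, 9.00 and 7.55 CPM in MPTP-SU, 5.24, 5.17, 4.41 and 7.15 CPM in MPTP-SU+S and 5.26, 6.24, 5.42 and 6.60 CPM in MPTP-SU+T. The margin was narrow here too, 7.32 against 7.15 CPM. The log2 difference was -0.49 (SE 0.13, 95% interval -0.78 to -0.20), and the Con libraries were the highest at 11.4 to 20.3 CPM. Npy is also 1 of 15 hypothalamic markers, whose summed level was 61.1 to 93.4 CPM in MPTP-SU and 55.6 to 177 CPM with the antagonists, and the part of dissection was not tested.

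Klhdc7b, a kelch-domain gene, had the smallest pooled p of the 10. It was at 2.11, 2.44, 2.84 and 2.74 CPM in MPTP-SU, 1.09, 1.64, 1.12 and 0.815 CPM in MPTP-SU+S and 1.97, 1.53, 1.30 and 1.54 CPM in MPTP-SU+T. The MPTP-SU+S libraries were the lower of the 2 arms on average, with log2 differences from MPTP-SU of -1.11 and -0.68, but the difference between the arms, 0.43, had a 95% interval of -0.11 to 0.98. Kcnh5 encodes a voltage-gated potassium channel of the EAG family. It was at 3.25 to 5.11 CPM in MPTP-SU and at 2.04 to 3.22 CPM in the 8 antagonist libraries, a log2 difference of -0.62 (SE 0.17). Dnai7, an axonemal dynein-associated gene of motile cilia, was at 1.72, 1.76, 2.03 and 2.81 CPM in MPTP-SU and at 0.609 to 1.5 CPM with the antagonists, a log2 difference of -1.02 (SE 0.26). The summed level of 8 ependymal markers, genes of ciliated cells, was 23.6 to 30.9 CPM in MPTP-SU and 17.4 to 34.5 CPM with the antagonists.

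**Figure D2:**
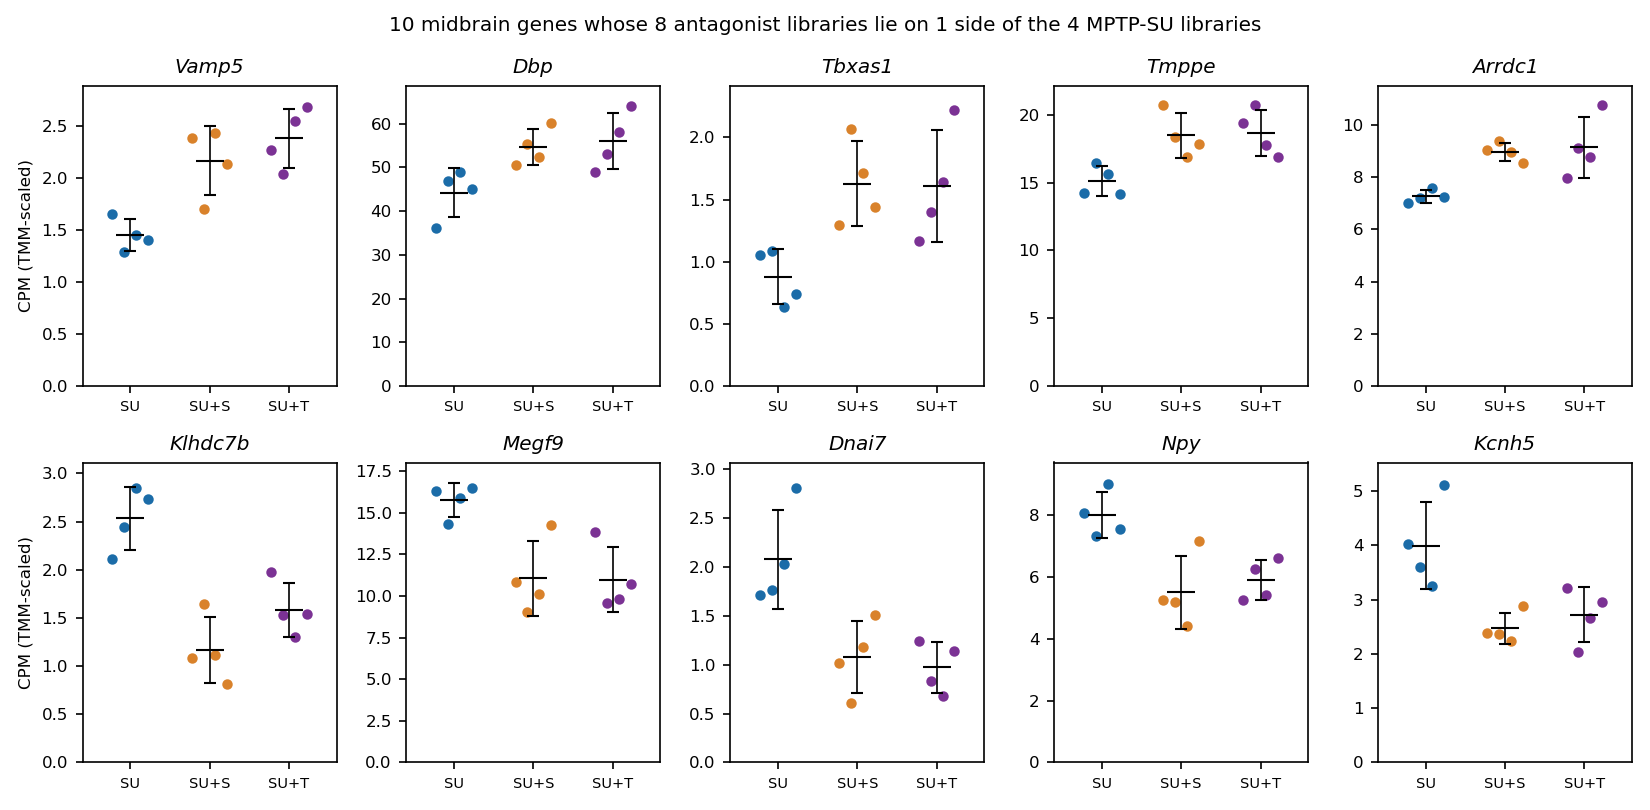
CPM of the 5 higher (top row) and 5 lower (bottom row) named genes in MPTP-SU (SU), MPTP-SU+S (SU+S) and MPTP-SU+T (SU+T). Points are libraries in order of replicate number, horizontal marks are means, and error bars are SD (n = 4). In each panel the 8 antagonist libraries lie on 1 side of the 4 MPTP-SU libraries, the property by which the genes were chosen.

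The drug targets came next. Cnr1 was at 85.9, 73.5, 57.6 and 47.8 CPM in MPTP-SU, at 55.5, 68.6, 76.1 and 48.5 CPM in MPTP-SU+S and at 66.7, 48.2, 61.9 and 50.8 CPM in MPTP-SU+T. All 8 antagonist libraries lay inside the MPTP-SU range. The pooled log2 difference was -0.15 (SE 0.16, 95% interval -0.49 to 0.18), and ran from -0.28 without MPTP-SU replicate 4 to -0.0024 without MPTP-SU replicate 1. Pparg was weakly expressed, with 1.72, 1.76, 1.28 and 0.518 CPM in MPTP-SU, 1.16, 1.28, 0.987 and 0.439 CPM in MPTP-SU+S and 1.17, 0.956, 1.58 and 0.626 CPM in MPTP-SU+T. Replicate 4 was the lowest of each group. The log2 difference was -0.37 (SE 0.35) and its interval, -1.13 to 0.39, includes both a fall by more than 2-fold and none. With 1 library left out it ran from -0.63 (MPTP-SU replicate 4) to -0.21 (MPTP-SU replicate 2).

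Of 16 endocannabinoid genes 13 were tested, and none was called or had an unadjusted p below 0.05 (background 3.46%). DESeq2, limma-voom and RLE scaling each gave 1 of 13 higher at that level, and library size alone gave 2. The replicate block gave 0 higher and 1 lower, and with 1 library left out there were up to 1 higher and up to 2 lower. Their median log2 difference was -0.09, with 4 positive and 9 negative, beside a median of 0.00 over all genes. The list's median ran from -0.13 without MPTP-SU replicate 1 to -0.01 without MPTP-SU replicate 3. Cnr2, the CB2 receptor of immune cells, was too low to test, at 0 to 0.666 CPM in the 12 libraries. The enzymes overlapped between groups. Dagla, which makes the endocannabinoid 2-AG, was at 45.3, 63.9, 73.6 and 72.3 CPM in MPTP-SU with a log2 difference of -0.26 (SE 0.17, 95% interval -0.62 to 0.10), and Mgll, which breaks 2-AG down, had a log2 difference of -0.09 (SE 0.14, 95% interval -0.38 to 0.20). Faah, which degrades anandamide, had -0.10 (SE 0.13). Fabp5, a lipid carrier that brings anandamide to Faah, had the smallest p of the list. It was at 71.6, 65.1, 79.2 and 84.1 CPM in MPTP-SU and at 78.3 to 90.0 CPM in the antagonist libraries, with overlap and a log2 difference of 0.16 (SE 0.07, unadjusted p 0.052).

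The 16 PPAR receptors, partners and coregulators were all tested, with none called, none at an unadjusted p below 0.05 (background 3.46%) and a median of -0.07. That median ran from -0.08 without MPTP-SU+S replicate 3 to -0.04 without MPTP-SU replicate 2. For 14 of 16 the 95% interval lay inside 1.5-fold. PPAR target genes (26 of 28 tested) had a median of 0.00, with 15 positive and 11 negative, and 1 of 26 had an unadjusted p below 0.05 (background 3.46%), or 0 with DESeq2. That gene, Angptl4, was singled out after its values were seen. It encodes a secreted inhibitor of lipoprotein lipase. Angptl4 was at 2.97, 2.24, 2.38 and 3.11 CPM in MPTP-SU, at 2.72, 2.50, 2.24 and 2.32 CPM in MPTP-SU+S and at 1.90, 1.47, 1.86 and 1.59 CPM in MPTP-SU+T. The 4 T0070907 libraries lay below all 8 others, while the SR141716A libraries overlapped with MPTP-SU. The log2 difference from MPTP-SU was -0.65 for T0070907 (unadjusted p 0.0052) and -0.13 for SR141716A, and the direct difference between the arms was -0.52 (SE 0.19, 95% interval -0.94 to -0.10, unadjusted p 0.019, adjusted p 0.99999 by edgeR's test). Among other targets, Pdk4, a brake on pyruvate oxidation, and Plin2, a lipid droplet coat protein, had log2 differences of 0.18 (SE 0.14) and 0.10 (SE 0.13). The fat-cell genes Fabp4 and Adipoq were at or near 0 in the 12 libraries, at no more than 0.203 and 0.0731 CPM.

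Dopaminergic genes checked the tissue label and are the cells that MPTP attacks. Th, the rate-limiting enzyme of dopamine synthesis, was detected in every library. It was at 20.1, 27.1, 54.6 and 73.2 CPM in MPTP-SU, at 65.7, 51.5, 30.8 and 72.2 CPM in MPTP-SU+S and at 43.5, 71.9, 68.7 and 67.9 CPM in MPTP-SU+T. MPTP-SU spanned a wide range, with replicates 1 and 2 below all 8 antagonist libraries and replicate 4 above them. The pooled log2 difference was 0.43 (SE 0.31, 95% interval -0.23 to 1.09). Leaving out the first MPTP-SU library gave 0.19, and leaving out its replicate 4 gave 0.79. In bulk tissue, fewer dopaminergic neurons, less RNA per neuron and a different share of the dissected block cannot be told apart.

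Other genes of the dopamine pathway overlapped between groups as well. Slc6a3, the dopamine transporter, was at 24.4, 40.3, 86.2 and 129 CPM in MPTP-SU, and the 8 antagonist libraries, at 33.7 to 116 CPM, lay inside that range. The vesicular transporter Slc18a2 was at 49.7, 34.0, 49.5 and 65.3 CPM in MPTP-SU, 65.7, 56.6, 36.1 and 94.9 CPM in MPTP-SU+S and 59.9, 75.6, 89.1 and 63.3 CPM in MPTP-SU+T. Ddc, which makes dopamine from L-DOPA, had a log2 difference of 0.44 (SE 0.22), close to 0.45 (SE 0.22) for Slc18a2. The 95% intervals of Slc6a3, Slc18a2 and Ddc each included 0.

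Over the 23 dopaminergic identity genes the median pooled log2 difference was 0.31, with 20 positive and 3 negative, where 50.6% of all genes were positive. None was called, and no member separated the groups. The genes share their libraries and the scaling of these, so the signs are not independent. Summed CPM of the list was 680 to 920 in Con, 638 to 1193 in MPTP-Veh, 648 to 981 in MPTP-SU and 671 to 1065.5 with the antagonists. At an unadjusted p below 0.05 there were 6 higher (background 1.57%) and 0 lower. The largest difference was that of En1, a homeobox factor that keeps midbrain dopaminergic neurons alive. En1 was at 6.87, 4.82, 6.38 and 10.4 CPM in MPTP-SU, at 18.6, 9.92, 8.22 and 13.5 CPM in MPTP-SU+S and at 8.55, 12.6, 19.7 and 11.2 CPM in MPTP-SU+T. Only MPTP-SU replicate 4 reached the antagonist range. The log2 difference was 0.85 (SE 0.27, unadjusted p 0.0070, adjusted p 0.9997 by edgeR's test).

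The other 5 were En2, the paralog of En1, with a log2 difference of 0.64 (SE 0.26), the transporter family member Slc10a4 with 0.68 (SE 0.29), the synuclein Sncg with 0.56 (SE 0.25), the dopamine autoreceptor Drd2 with 0.31 (SE 0.13) and the aldehyde dehydrogenase Aldh1a1 with 0.20 (SE 0.08). Nr4a2, a nuclear receptor that maintains dopaminergic identity, was among the 3 negative genes with -0.18 (SE 0.20). The number at an unadjusted p below 0.05 ran from 1 without MPTP-SU replicate 2 to 12 with replicate 4 of that group left out, beside 6 in the full fit.

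Markers of neighbouring regions also differed between libraries, and their part in the result was not tested. The summed CPM of 10 dopaminergic markers was 186 to 436 in MPTP-SU, 187 to 465 in MPTP-SU+S and 304 to 448 in MPTP-SU+T, and that of 8 serotonergic markers 68.2 to 156, 99.1 to 157 and 91.4 to 209. All 8 serotonergic markers were positive, with a median of 0.32. That median ran from 0.26 without MPTP-SU+T replicate 3 to 0.48 without MPTP-SU replicate 1, and 7 or 8 were positive with 1 library left out. Tph2, the enzyme of serotonin synthesis in the raphe, was at 38.8, 5.43, 4.93 and 9.77 CPM in MPTP-SU and at 8.64 to 68.7 CPM with the antagonists. Markers of cortex and hippocampus had a median of -0.32, with 2 of 12 positive, but -0.09 without MPTP-SU replicate 2 and -0.16 without replicate 3. Of these, the cortical transcription factor Tbr1 had a log2 difference of -1.54 (SE 0.57), and MPTP-SU replicate 2 was the highest of the 12 libraries, at 14.4 CPM. The summed CPM of the cortical markers was 614 to 890 in MPTP-SU and 598 to 949 with the antagonists. Thalamic markers had a median of -0.22 (3 of 10 positive), which ran from -0.37 without MPTP-SU+T replicate 4 to -0.13 without MPTP-SU+S replicate 1. Ependymal markers had one of -0.27 (0 of 7 positive), which ran from -0.76 without MPTP-SU+S replicate 4 to -0.29 without MPTP-SU replicate 2, with 7 or 8 of them tested. Markers of motor and cholinergic neurons had a median of 0.27 (5 of 7 positive), which ran from -0.20 without MPTP-SU+S replicate 1 to 0.49 without MPTP-SU replicate 1, and markers of the colliculus, red nucleus and tegmentum one of 0.07, which ran from -0.06 without MPTP-SU+T replicate 3 to 0.34 without MPTP-SU replicate 1.

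**Figure D3:**
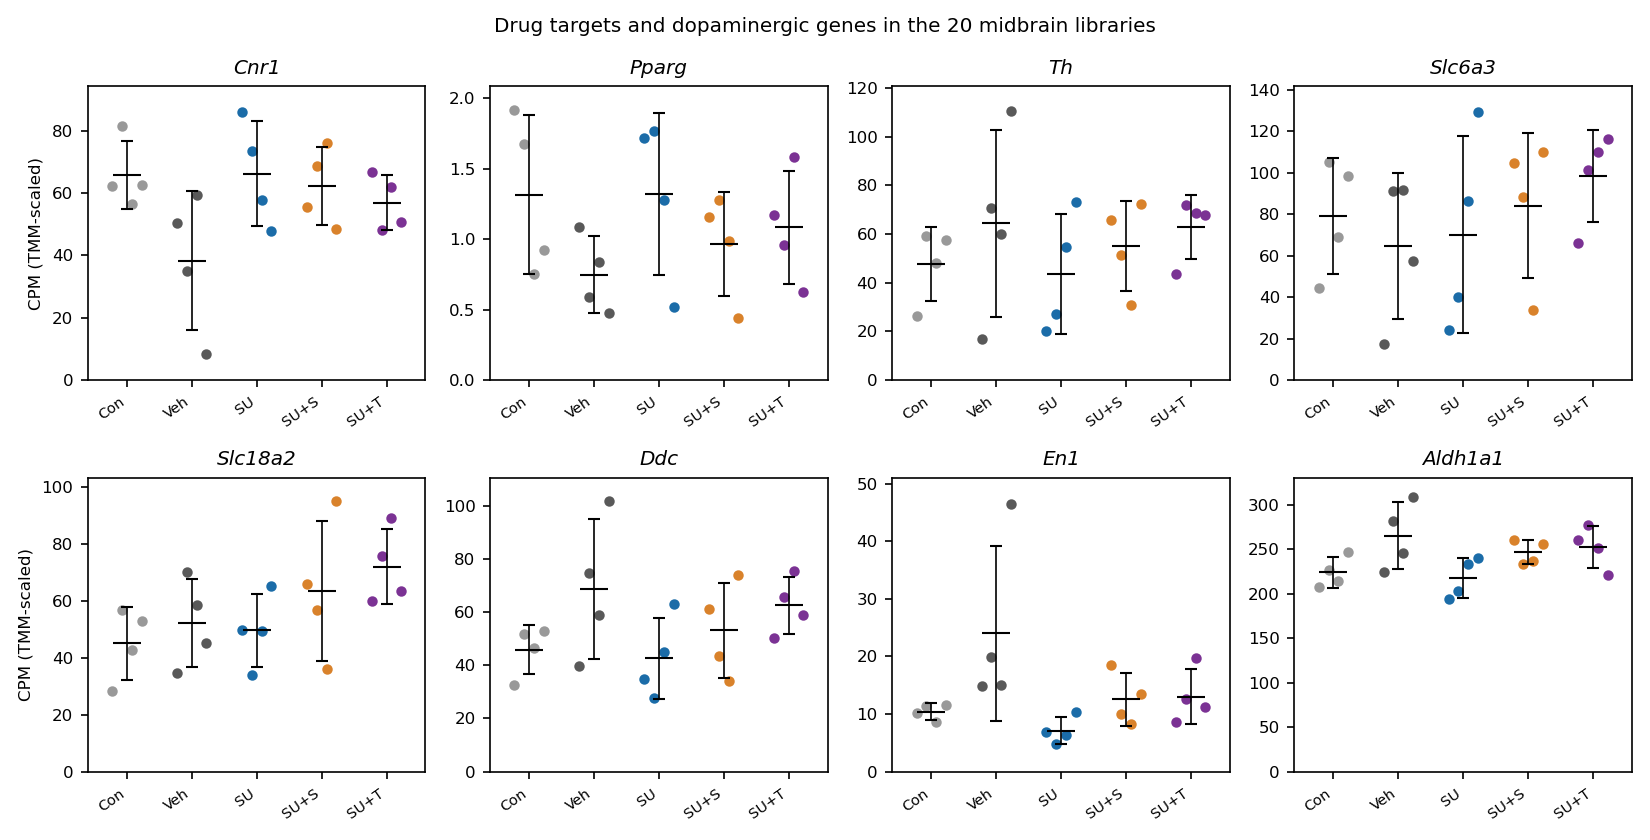
CPM of the drug targets Cnr1 and Pparg and of 6 dopaminergic genes in the 20 midbrain libraries, by group (Con, Veh for MPTP-Veh, SU, SU+S and SU+T). Points are libraries in order of replicate number, horizontal marks are means, and error bars are SD (n = 4). Th and Slc6a3 spread widely within MPTP-SU, from 20.1 to 73.2 and from 24.4 to 129 CPM, and the antagonist libraries overlap that range.

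The study stained c-Fos, phosphorylated p38, CD11b and GFAP protein in the spinal cord, and BDNF protein in the substantia nigra and hippocampus. The genes of these proteins, read here as mRNA of bulk midbrain, overlapped between the groups. The values are another measure than the stains, and for all but BDNF they are from another tissue. Mapk14 mRNA does not report the phosphorylation of p38. Bdnf, a growth factor that supports dopaminergic neurons, was at 18.7, 19.3, 14 and 16.7 CPM in MPTP-SU and at 14.3 to 21.7 CPM with the antagonists. Its log2 difference was 0.02 (SE 0.12, 95% interval -0.23 to 0.27), which leaves out a 1.5-fold difference either way. Fos, the immediate early gene used as a sign of neuronal activity, was at 7.20, 11.4, 12.7 and 16.1 CPM in MPTP-SU, 11.3, 11.3, 6.45 and 7.40 CPM in MPTP-SU+S and 9.28, 8.28, 11.4 and 10.5 CPM in MPTP-SU+T. Both arms lay inside the MPTP-SU range or just below it, with a log2 difference of -0.31 (SE 0.20), which was -0.49 without MPTP-SU replicate 1 and -0.13 without replicate 4. The stress kinase Mapk14 had -0.12 (SE 0.07, 95% interval -0.27 to 0.03).

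The glial genes Itgam, Aif1 and Gfap overlapped between the groups. The microglial integrin Itgam was at 12.4, 12.7, 12.2 and 13.3 CPM in MPTP-SU and at 11.6 to 14.7 CPM with the antagonists, a log2 difference of 0.09 (95% interval -0.09 to 0.27). Aif1, another microglial gene, had 0.06 (SE 0.17) and the astrocytic filament gene Gfap 0.16 (SE 0.16). Gfap was at 161, 170, 317 and 210 CPM in MPTP-SU, and all 8 antagonist libraries, at 182 to 282 CPM, lay within that range. With 1 library left out its difference ran from 0.04 (MPTP-SU replicate 1) to 0.41 (MPTP-SU replicate 3). The 95% interval lay inside 1.5-fold for 12 of 13 microglial, 12 of 12 astrocytic and 12 of 12 oligodendrocyte markers, with medians of 0.07, 0.04 and 0.05. With 1 library left out these 3 medians ran from 0.03 to 0.16, from 0.03 to 0.05 and from -0.01 to 0.10. Of 30 inflammatory mediators tested, 0 were at an unadjusted p below 0.05 (background 3.46%), and the median was -0.02. That median ran from -0.04 without MPTP-SU+S replicate 2 to 0.03 without MPTP-SU replicate 3. With 1 library left out, up to 1 was higher and up to 2 were lower at that level. Library size alone gave 2 higher and the replicate block 1 higher, while DESeq2 and limma-voom gave 0 in either direction.

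Most other lists had medians near 0 and no called member. Cytosolic ribosomal proteins had a median of 0.07 with 65 of 76 positive, nuclear complex I subunits 0.08 with 32 of 37 positive, subunits of complexes II to V 0.04, mitochondrially encoded proteins 0.09 with 13 of 13 positive and proteasome subunits 0.05. For 75 of the 76 ribosomal protein genes and all 37 complex I genes the 95% interval lay inside 1.5-fold. With 1 library left out, the positive genes numbered 7 to 13 of the mitochondrially encoded proteins, whose median was 0.01 without MPTP-SU replicate 4 and 0.21 without replicate 2. For complex I they numbered 21 to 36, lowest without MPTP-SU replicate 1, and for ribosomal proteins 52 to 72. For complexes II to V they numbered 19 to 35, and the median ran from -0.0014 without MPTP-SU replicate 1 to 0.08 without replicate 3. The proteasome median ran from 0.03 without MPTP-SU replicate 2 to 0.08 without replicate 4. Genes of 1 list share the scaling of their libraries, so these counts of positive signs are not independent. Rps26, a protein of the small ribosomal subunit, separated the groups, with 132, 123, 138 and 137 CPM in MPTP-SU against 143 to 173 CPM with the antagonists, a log2 difference of 0.23 (SE 0.07).

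Transmitter and channel lists had medians slightly below that of all genes. Glutamate transporters and receptors had a median of -0.08 (21 of 30 negative), GABA genes -0.03, potassium channels -0.05, sodium and calcium channels -0.05 and clustered protocadherins -0.04. With 1 library left out the glutamate median ran from -0.10 to -0.04 and that of potassium channels from -0.08 to -0.005. Sodium and calcium channels ran from -0.05 to -0.003 and protocadherins from -0.07 to -0.03. Scaled by library size alone, the median of all genes was 0.09 and those of the 5 lists 0.00 to 0.05. The median of the GABA genes was positive without MPTP-SU replicate 1 (0.07, with 16 of 22 positive), MPTP-SU replicate 2 or MPTP-SU+T replicate 4. Within the glutamate list 3 genes had an unadjusted p below 0.05 and were lower (background 1.88%) and 1 was higher, but 0 were lower without MPTP-SU replicate 2 and 0 with library size alone. Grin2b, an NMDA receptor subunit, was at 83.8, 147, 131 and 143 CPM in MPTP-SU, 65.8, 65.7, 89.9 and 128 CPM in MPTP-SU+S and 92.0, 100, 70.7 and 129 CPM in MPTP-SU+T. Its MPTP-SU replicate 1 lay among the antagonist libraries, and the log2 difference was -0.45 (SE 0.20).

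Clock genes were looked at beside Dbp. Of 18 tested, 3 had an unadjusted p below 0.05 (background 3.46%), with 2 higher and 1 lower. They were Dbp, its neighbour in phase Ciart with a log2 difference of 0.32 (SE 0.14), and Bmal1 with -0.26 (SE 0.09). Dbp had been chosen from all genes for not overlapping with a small pooled p, so its place among the 3 follows from that choice. No clock gene was called, and the median of the list was -0.03. Bmal1, whose mRNA normally peaks when that of Dbp is low, was at 25.5, 29.1, 30.4 and 26.1 CPM in MPTP-SU and at 18.9 to 26.1 CPM with the antagonists. Per1 (0.16, SE 0.14), Per2 (0.00, SE 0.13) and Nr1d1 (0.18, SE 0.13) had intervals that included 0. With the Gm26917 covariate described at the end, 0 clock genes were higher at that level and 3 lower, and with 1 library left out there were 1 to 3 in each direction. The hour of tissue collection is not given in the sources used here, and its part in these values was not tested. Immediate early genes had a median of -0.13, which was -0.21 without MPTP-SU replicate 1, -0.03 without replicate 2 and -0.03 without replicate 4. With 1 library left out, the number lower at an unadjusted p below 0.05 ran from 0 (without MPTP-SU replicate 2) to 4. In the full fit 1 of 21 was lower at that level (background 1.88%). That gene, Egr3, was at 7.79, 13.1, 7.25 and 4.52 CPM in MPTP-SU against 2.92 to 7.46 CPM, a log2 difference of -0.75 (SE 0.26, unadjusted p 0.011).

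The remaining lists had no called member. Their medians were 0.04 for neurotrophic factors and receptors, 0.04 for NRF2 pathway genes, 0.05 for glucocorticoid-responsive genes, -0.02 for heat shock and unfolded protein response genes, -0.03 for tight junction genes, 0.07 for snoRNA host genes, -0.01 for nuclear long noncoding RNAs, and 0.00 for SR proteins and hnRNPs. That of the clock genes was -0.03. With 1 library left out, the median changed sign for glucocorticoid-responsive genes (-0.02 to 0.11), heat shock genes (-0.06 to 0.02) and nuclear long noncoding RNAs (-0.10 to 0.01). It also did for clock genes (-0.07 to 0.01) and for SR proteins and hnRNPs (-0.03 to 0.02). The other ranges were 0.04 to 0.08 (neurotrophic), 0.02 to 0.08 (NRF2), 0.03 to 0.10 (snoRNA hosts) and -0.06 to -0.01 (tight junction).

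**Figure D4:**
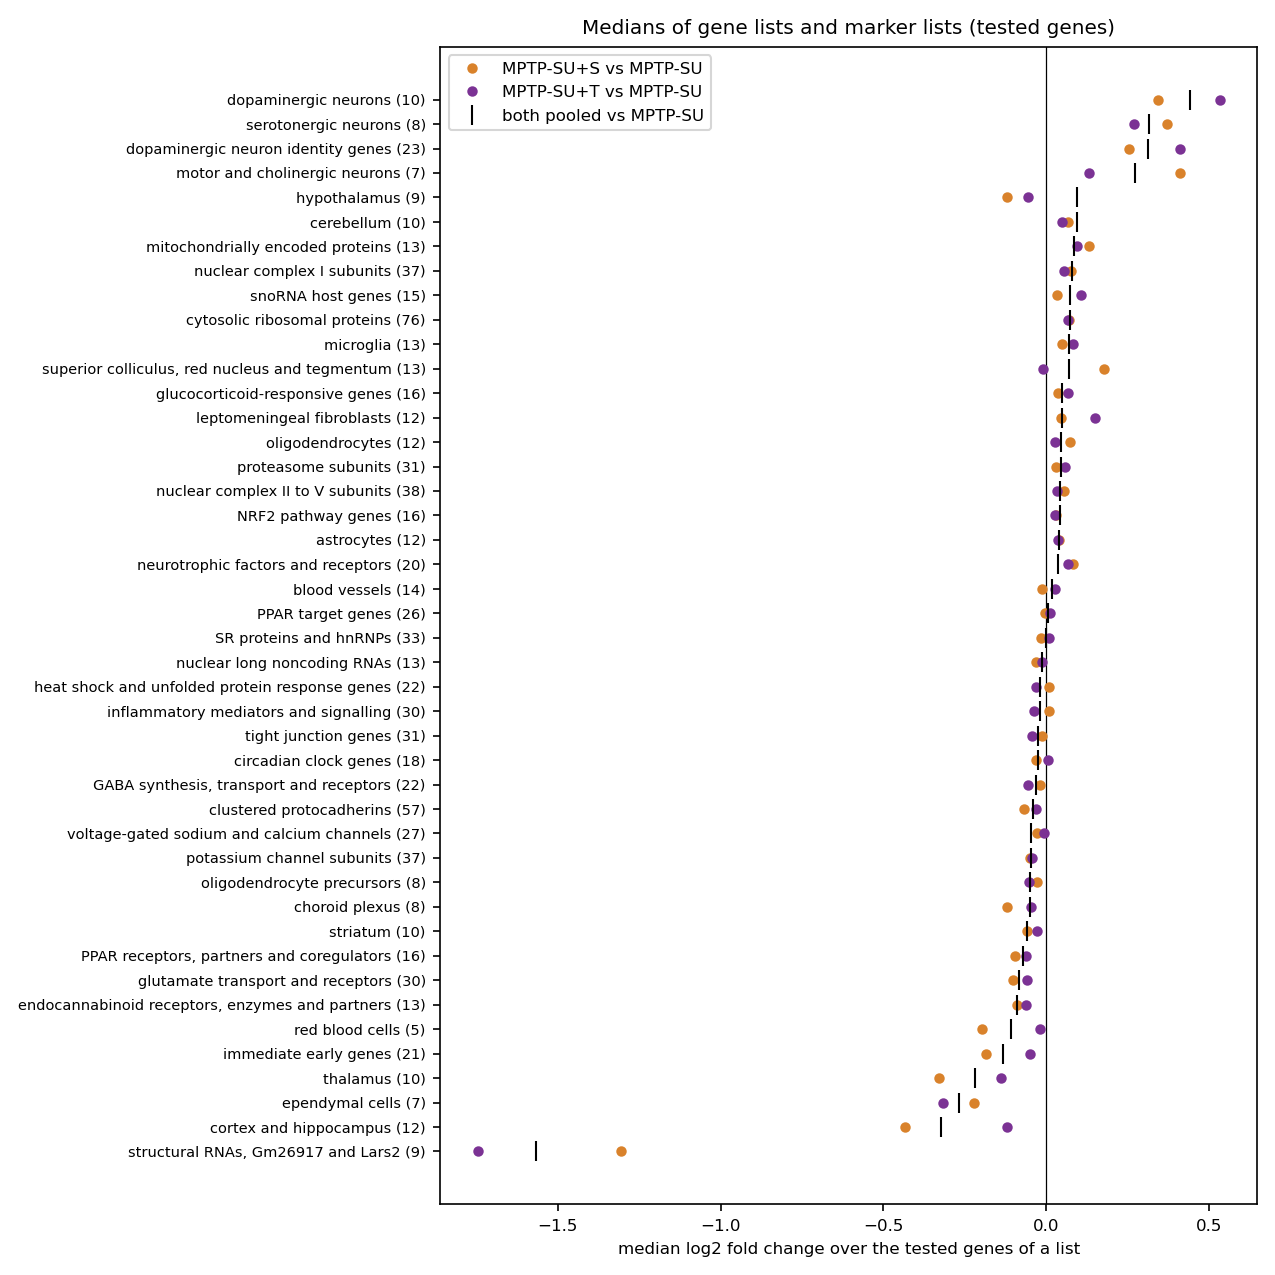
Median log2 fold change over the tested genes of each list or marker set (number tested in brackets, sets with at least 5) for MPTP-SU+S against MPTP-SU (orange), MPTP-SU+T against MPTP-SU (purple) and both pooled (black bars). Both arms share the 4 MPTP-SU libraries. Most medians lie within 0.1 of 0, the pooled medians of the dopaminergic, serotonergic and motor and cholinergic sets lie above 0.25, those of the cortical, ependymal and thalamic sets lie at -0.32, -0.27 and -0.22, and the set of structural RNAs with Gm26917 and Lars2 lies at -1.57.

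Large differences of 1 sign in both arms were found in a set made mostly of RNAs with no protein code. These 9 genes were put together after their values were seen, so their counts describe these libraries only. They are Rn7sk, which holds the elongation factor P-TEFb in check, the signal recognition particle RNAs Rn7s1 and Rn7s2, Rmrp and Rpph1, the RNA parts of RNase MRP and RNase P, the mitochondrial ribosomal RNAs mt-Rnr1 and mt-Rnr2, the predicted long noncoding RNA Gm26917, and Lars2, a gene for a mitochondrial tRNA synthetase. All 9 pooled log2 differences were negative, from -0.52 to -2.14, where 50.6% of all genes were positive. At an unadjusted p below 0.05 there were 7 (background 1.88% lower), or 4 with DESeq2, which gave no p for Rmrp. None of the 9 was called (adjusted p 0.9997 by edgeR's test).

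Rn7sk, Rmrp and Rpph1 are transcribed by RNA polymerase III and normally end without a poly(A) tail, whereas the libraries were made from poly(A)-selected RNA. The last 100 bases of their transcripts in the GENCODE M21 mouse annotation (GRCm38) are shown for the adenine runs that they encode. A poly(A) tail is added after transcription and is not part of an annotated sequence. The bases therefore cannot show whether these RNAs carried a tail in these libraries. Every run of 3 or more adenines is in capitals.
Rn7sk: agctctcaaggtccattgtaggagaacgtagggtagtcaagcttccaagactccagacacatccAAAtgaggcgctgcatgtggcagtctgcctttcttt
Rmrp: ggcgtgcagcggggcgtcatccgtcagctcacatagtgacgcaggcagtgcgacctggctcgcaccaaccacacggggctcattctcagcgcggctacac
Rpph1: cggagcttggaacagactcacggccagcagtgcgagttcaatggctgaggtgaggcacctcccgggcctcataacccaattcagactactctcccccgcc
Over its whole length Rn7sk (331 bases) holds 2 such runs, Rmrp (281 bases) holds 1 and Rpph1 (319 bases) holds 0, and no run is longer than 3. How these RNAs came through the selection, and whether that differed between libraries, was not tested.

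Rpph1 was at 35.3, 35.5, 16.1 and 58.9 CPM in MPTP-SU, at 27.4, 14.3, 6.25 and 6.90 CPM in MPTP-SU+S and at 21.3, 3.25, 2.26 and 4.84 CPM in MPTP-SU+T. Replicate 1 of each antagonist group lay in the MPTP-SU range and the other 6 antagonist libraries below it. The log2 difference was -1.82 (SE 0.52, 95% interval -2.93 to -0.71). Rn7sk was at 278, 298, 152 and 549 CPM in MPTP-SU, 247, 86.5, 48.0 and 55.1 CPM in MPTP-SU+S and 311, 30.3, 16.7 and 31.9 CPM in MPTP-SU+T, with the same libraries high. Rmrp was at 14.9, 13.4, 12.8 and 56.3 CPM in MPTP-SU, 27.5, 5.97, 2.04 and 2.01 CPM in MPTP-SU+S and 14.3, 0.892, 0.678 and 2.85 CPM in MPTP-SU+T.

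Gm26917 took the largest share of counts. It held 6.88%, 7.24%, 3.84% and 14.3% of all counts in MPTP-SU, 8.18%, 2.32%, 1.24% and 2.26% in MPTP-SU+S and 7.15%, 0.957%, 0.754% and 1.00% in MPTP-SU+T. The shares in Con were 0.563% to 1.95%, and 1 MPTP-Veh library reached 10.3%. High values were thus found in all 4 MPTP-SU libraries and in 1 library of each other MPTP group. Mitochondrial ribosomal RNA mt-Rnr2 was at 24503, 25310, 12219 and 21908 CPM in MPTP-SU, at 13284 to 15966 CPM in MPTP-SU+S and at 27423, 13375, 8969 and 10243 CPM in MPTP-SU+T. Without MPTP-SU replicate 4 the number of the 9 genes at an unadjusted p below 0.05 was 1, Rpph1, and without MPTP-SU+T replicate 1 it was 9. The log2 share of Gm26917 was also added to the fit as a covariate, an alternative chosen after seeing the data. With it, 0 genes were called in the pooled comparison. Of all 16130 genes, 381 then had an unadjusted p below 0.05 in either direction, beside 558 without the covariate. Of the dopaminergic identity genes 3 were higher at that level (6 without the covariate), with a median of 0.30. The 9 genes of the set, which include Gm26917 itself, had a median of -0.07, with 4 positive and 0 at that level. The Gm26917 share is uneven between the groups, and most of the set was high in the same libraries. The covariate thus takes up part of the contrast, so a smaller difference of the set was built in. Antagonist treatment and the Gm26917 share cannot be told apart with it.

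**Figure D5:**
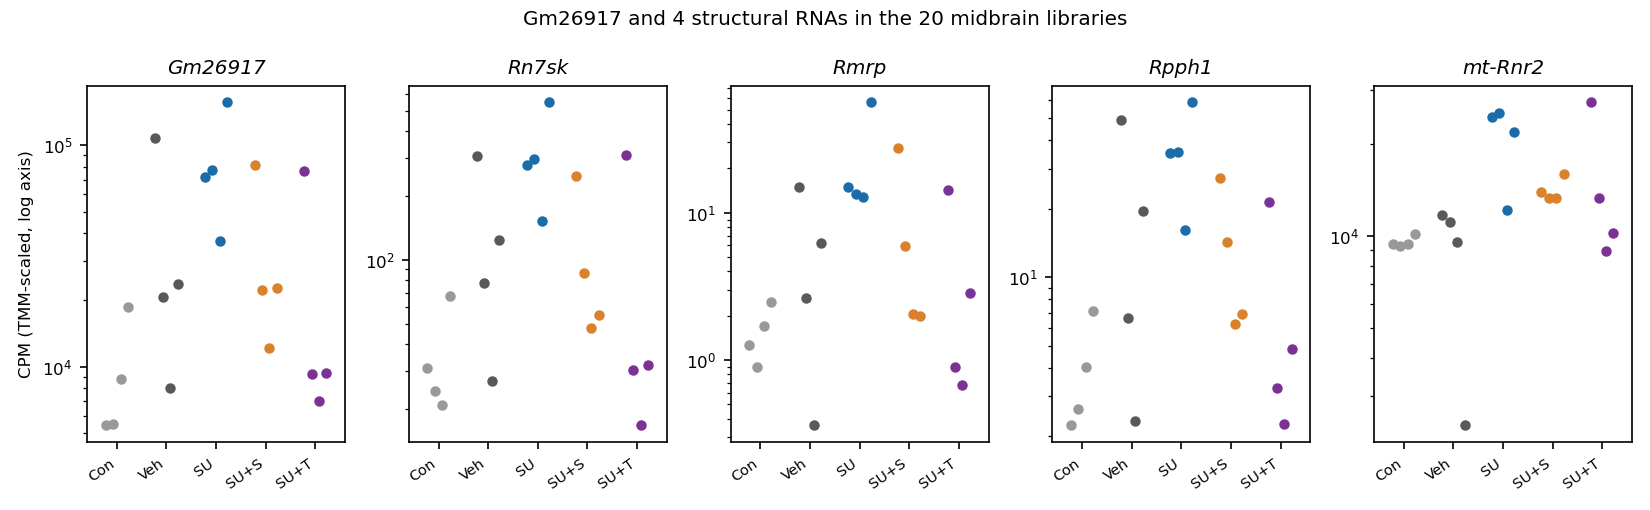
CPM (log axis) of Gm26917, Rn7sk, Rmrp, Rpph1 and mt-Rnr2 in the 20 midbrain libraries by group (Con, Veh for MPTP-Veh, SU, SU+S and SU+T), with points in order of replicate number. For Gm26917, Rn7sk and Rpph1 the 4 MPTP-SU libraries and replicate 1 of MPTP-Veh, MPTP-SU+S and MPTP-SU+T are high, and most other libraries lie lower.

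The 12 libraries held 14622817 to 16639823 counts each and resembled each other closely, with rank correlations across genes of 0.977 to 0.994. Proteins encoded by mitochondrial DNA took 9.92% to 17.5% of counts. No 2 replicates of a group agreed within sampling noise. Intervals on shares and levels cover counting error or the spread between these libraries only.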

How the data were processed

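mRNA of mouse midbrain was sequenced in 5 groups of 4 libraries. The authors selected poly(A) RNA and processed the reads with fastp for trimming, STAR for alignment and Salmon for quantification. Per the labels the build was GRCm39. The deposited values are estimated counts per gene symbol, whole numbers that are not normalized, with no versions given in the sources used here.

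Counts were analysed in R 4.3.3 with edgeR 4.0.16: filterByExpr kept 16130 of 40213 genes, library sizes were scaled by TMM, and 1 quasi-likelihood fit over the 12 libraries gave every contrast, with Benjamini-Hochberg adjustment over all genes. Genes were called at an adjusted p below 0.05 and a fold above 1.5. CPM are TMM-scaled. The members and gene lists were chosen with earlier results of these data known. Named genes were the 5 higher and 5 lower with the smallest pooled p among genes whose 8 and 4 libraries do not overlap (unnamed predicted genes passed over), the drug targets, Th, Bdnf, Fos, Itgam, Aif1, Gfap and Mapk14. The set around Gm26917 and the 3 extreme genes were added after values were seen. Alternatives used DESeq2 1.42.0 and limma 3.58.1. The fits were tested on simulated data. The spinal cord was not used here. Some members of the lists are not reported here by name.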

Additional observations from a re-analysis of the deposited data

Results flagged for a closer look

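Single libraries that lay far from the other 3 of their group, by Dixon's test at the 95% level, were looked for in 28 genes and 3 groups, 84 groups in all. Chance flags about 1 in 20 groups, and 11 values were found. The values found are not independent, since all but that of Th are from the set around Gm26917.

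MPTP-SU+T replicate 1 gave 6 of them. It was low for Th, at 43.5 CPM against 67.9 to 71.9 CPM in the other 3 libraries, and high for Rn7sk at 311 CPM, Rpph1 at 21.3 CPM, Gm26917 at 76429 CPM, Lars2 at 7099 CPM and Rmrp at 14.3 CPM. MPTP-SU+S replicate 1 was high for Gm26917 at 81498 CPM and Rmrp at 27.5 CPM, and MPTP-SU+S replicate 4 for mt-Rnr1 at 11100 CPM. MPTP-SU replicate 4 was high for Rn7s2 at 949 CPM and Rmrp at 56.3 CPM. Without MPTP-SU+T replicate 1 the smallest adjusted p of the pooled comparison was 0.197, again with 0 genes called.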

How the results depend on the processing

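Each of the 5 counts of called genes was 0 under 28 of 29 alternatives: other tools, scalings and filters, all 20 midbrain libraries, the 19 without MPTP-Veh replicate 4, the libraries of a contrast alone, GC and length removal, glmTreat against 1.2-fold, the Gm26917 covariate and each library left out in turn (lowest 0, highest 0). The exception, an unadjusted p below 0.05 with 1.5-fold, gave 178 genes pooled, 170 for SR141716A, 177 for T0070907, 52 in both with 1 sign and 89 between the arms. The smallest adjusted p of the pooled comparison ran from 0.11 with no filter on low counts to 1. With 1 library left out, the genes at an unadjusted p below 0.05 ran from 374 without MPTP-SU replicate 2 to 891 without MPTP-SU+T replicate 4, beside 558. The labels do not say what a replicate number shares. Deviations of same-numbered libraries correlated between -0.126 and 0.308, with 6 of 12 libraries closest to their own number, so not every pair was above 0.1 and the numbers were not taken as pairs. The fit with a replicate block also called 0 genes, and 0 with GC and length removed. With the block the log2 difference of Rn7sk went from -1.63 to -2.34 (adjusted p 0.857) and that of Rmrp from -1.90 to -2.59.

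Of the 19 named genes, 16 kept their sign under every alternative tried. Bdnf ran from -0.0659 to 0.0826 and Aif1 from -0.0652 to 0.182 with 1 library left out. With the Gm26917 covariate Aif1 was at -0.0960 and Gfap at -0.0803. Scaling by library size alone moved the median of all genes from 0.00 to 0.09 and that of the dopaminergic identity genes from 0.31 to 0.41. Intervals were widest for genes below 1 CPM, and counting error and the spread between libraries were not separated. The 4 MPTP-SU libraries are the reference of all comparisons but that between the arms.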
